A study of Drosophila melanogaster with 3 samples.

Results

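Chromatin immunoprecipitation with sequencing (ChIP-seq) maps where a protein sits on DNA, and here it was read at 9 genes of the insulin and TOR pathway: InR, chico, Akt, foxo, Tor, raptor, gig, S6k and Thor. They were chosen by name as core members of the pathway, with earlier results of these data known, out of 13968 protein-coding genes in the annotation. Every listed region whose summit lay within 500 bp of an annotated transcription start, or between the ends of the gene, was collected for each of them. The material was 3 biological replicates of whole mixed-sex Drosophila melanogaster embryos, 0 to 24 h old, all from 1 transgenic line in which CG4617 carries GFP at its C terminus. DNA bound by the fusion protein was recovered with an antibody against GFP from chromatin sonicated to 200 to 800 bp. The samples form 1 group and hold no control group, so there was no contrast to test and all values below are descriptions. Whole embryos mix all tissues, and which cells a region comes from was not resolved.

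Insulin-like peptides bind the receptor tyrosine kinase InR, and the adaptor chico links the receptor to phosphoinositide 3-kinase. The kinase Akt then restrains the transcription factor foxo and the tuberous sclerosis complex, whose gig subunit helps to hold back the TOR kinase. Active TOR, in a complex with raptor, turns on the ribosomal protein kinase S6k and turns off Thor, the repressor of cap-dependent translation, so that growth follows nutrition.

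A thresholded list of 5558 regions, called peaks here, is what the authors' reproducibility procedure kept, with deposited signals from 128.8 to 2038.1. A longer pooled list of 20051 regions and lists of 30000, 17251 and 14368 regions for replicates 1, 2 and 3 include background, so a place in them alone is not evidence of binding. The signal is the authors' own value on a scale that the sources do not state. It was compared within a list only, and ranks count from 1 for the highest signal. Replicate lists differ in length, so ranks in different lists are set side by side without reading a change from them. For the same reason the SD of a mean rank below mixes differences between the lists with differences between replicates.

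At 6 of the 9 genes, chico, Akt, Tor, raptor, S6k and Thor, a thresholded peak had its summit within 500 bp of a start, a call that 37.1% of all protein-coding genes received. Among the stronger 2779 peaks, the count was 2 of 9, near the share of 23.5% over all genes. The 9 genes were chosen with earlier results of these data known, and no test was made on these counts. The members without a thresholded promoter peak were InR, foxo and gig. At InR the thresholded peak lay inside the gene, at foxo the promoter regions ranked below the thresholded list, and at gig the start had a region in replicate 1 alone. The median signal of the 6 promoter peaks was 195.1, against 253 over all genes with such a peak, and 2 of the 6, S6k and chico, lay above that median. In 5 of the 6 the thresholded summit fell downstream of the start, in an untranslated part of an exon. Of all genes with a promoter peak, 40.2% had the summit downstream. Single replicates varied, and the strongest promoter summit was upstream at chico in replicate 2 and at Akt, Tor and Thor in replicate 3.

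**Figure D1:**
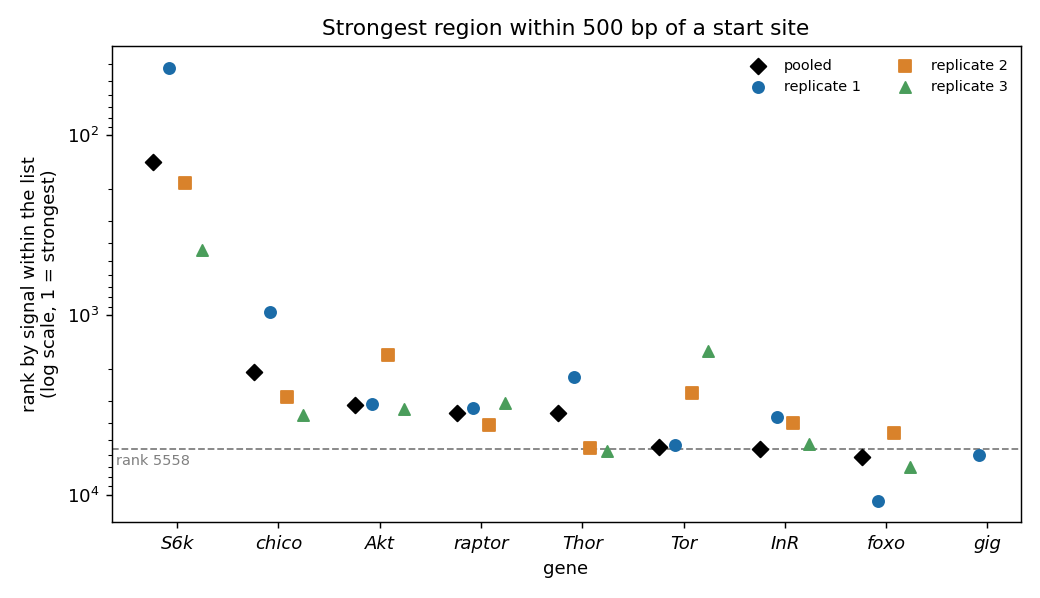
Rank by signal (log scale, 1 is the strongest region of a list) of the strongest region within 500 bp of a start of each gene, in the pooled list and the 3 replicate lists, with a dashed line at rank 5558. S6k stands at ranks 42 to 433 in all 4 lists, chico at 966 to 3625, and gig has a point in replicate 1 only.

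In the pooled list 8 of the 9 members had a promoter region, against 52.6% of all genes. In replicate 1 it was 9 of 9 against 59.2%, in replicate 2 it was 8 against 50.2%, and in replicate 3 it was 8 against 44.6%. The member missing from the pooled list and from replicates 2 and 3 was gig. A thresholded promoter summit that lay inside a region of all 3 replicates was found for 5 members, all of the 6 but Thor, against 33.6% of all genes. When each replicate was kept to its 5558 strongest regions, 4 members remained, chico, Akt, raptor and S6k, against 26.5%. With replicate 3 left out both counts were 6, beside 36.4% and 32.1% of all genes. With all 3 replicates, 4696 and 3707 of the 5179 genes with a promoter peak met these 2 rules.

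At InR, the receptor gene (FBgn0283499, chr3R:21570248-21619321 in dm6, minus strand), the strongest region was in an intron and not at the start. The peak ran from 21590787 to 21590928 with a signal of 361.1, rank 905, and 16.3% of all peaks were stronger. Its summit, at 21590844, lay 28.5 kb into the gene and 653 bp upstream of an internal start that 1 of the 4 annotated transcripts uses. Replicates 1, 2 and 3 held it at ranks 894, 1280 and 722, a mean of 965 ± 286 (SD, n = 3), with signals of 148.7, 122.3 and 94.3. Their summits, 21590860, 21590838 and 21590817, fell close together. InR was the only member with a thresholded summit in its body outside the promoter window, and 4.66% of all genes had one. The 201 bases around this summit are shown because it is the strongest region within any member gene. They are given 5′ to 3′ on the strand of InR, taken, like all sequences below, from the RefSeq assembly of Release 6, which is dm6. Capitals mark a short word, CGATA, 49 bp before the summit.
InR intron summit, chr3R:21590744-21590944, minus strand: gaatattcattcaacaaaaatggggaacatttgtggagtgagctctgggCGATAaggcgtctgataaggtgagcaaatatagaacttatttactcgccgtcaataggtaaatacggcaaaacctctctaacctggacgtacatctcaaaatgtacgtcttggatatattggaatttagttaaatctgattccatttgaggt

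The most upstream start of InR missed the thresholded list narrowly. The pooled region there had its summit at 21619437, 116 bp upstream, with a signal of 128.4 and rank 5575, while the weakest peak of the thresholded list had 128.8. All 3 replicates listed the place, at rank 3707 with a signal of 76.2, rank 4004 with 66.4 and rank 5211 with 32.3, and the summits lay 52, 133 and 153 bp upstream. In all, 16 pooled regions had their summits between the ends of the 49.1 kb gene, which is 3.26 per 10 kb against 1.46 per 10 kb over all chromosome arms. Replicates 1, 2 and 3 had 30, 10 and 12 there, or 6.11, 2.04 and 2.45 per 10 kb against 2.18, 1.25 and 1.04. These 4 lists, which include background, were denser within InR than over the arms. In the thresholded list the order was the opposite, with 1 region or 0.204 per 10 kb against 0.404. Apart from the strong intronic region, the highest signal within the gene was 117.8, rank 6087, in an intron 5.65 kb from the start.

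The adaptor gene chico (FBgn0024248, chr2L:10242512-10247078, minus strand) carried a promoter peak from 10246766 to 10247205 with a signal of 255, rank 2071. The summit lay 92 bp downstream of its only annotated start. The replicates placed it at ranks 966, 2853 and 3625, a mean of 2481 ± 1368 (SD, n = 3), with signals of 145, 83.8 and 42.7. Replicate 1 ranked it highest. These replicate regions had their summits 54 bp downstream, 7 bp upstream and 103 bp downstream of the start. A weaker pooled region of signal 94.3, rank 7589, was centred 107 bp upstream of the start, and replicate 3 also listed it. Around the chico summit the word CGATA, found within 100 bp of 37.3% of all thresholded summits on either strand, occurred 4 times, more than at any other member. The forkhead word GTAAACA, the core that foxo-type factors recognise, occurred 39 bp downstream of the summit, and 7.72% of all summits had it within 100 bp. The 4 copies of CGATA around the summit lie after the start, outside the stretch printed. The 100 bases before the start are shown for further copies of it, in capitals on the strand as read or as TATCG on the other.
chico before the start, chr2L:10247079-10247178, minus strand: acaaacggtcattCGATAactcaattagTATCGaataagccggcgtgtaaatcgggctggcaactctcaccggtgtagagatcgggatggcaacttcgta

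Akt, the kinase below the receptor (FBgn0010379, chr3R:16099228-16105670, plus strand), had a narrow promoter peak from 16099265 to 16099381, with its summit 138 bp downstream of the first of 2 starts. The signal was 201.1 and the rank 3188. Replicates 1, 2 and 3 held the summit at ranks 3143, 1676 and 3338, a mean of 2719 ± 909 (SD, n = 3), with signals of 85.1, 110 and 44.9. These regions were centred 283 and 154 bp downstream of the start in replicates 1 and 2 and 59 bp upstream in replicate 3, where the peak summit fell on the last base of the region. A second region of replicate 3, of signal 30.8 and rank 5522, also held the summit and was centred 196 bp downstream. A separate and stronger peak stood on the side of the neighbouring gene Mhcl, which encodes a myosin heavy chain-like protein. Its summit at 16098576 was 185 bp from the start of Mhcl and 652 bp upstream of Akt, with a signal of 244.7 and rank 2240. The replicates held that peak at ranks 3179, 1271 and 2710. The Akt promoter is shown because it was 1 of 2 member promoters with the core promoter word GGCAACGC, 24 bp before the start. That word was in 2.74% of all promoters, taken from 250 bp before to 50 bp after the most upstream start. Capitals mark it, copies of CGATA on the other strand and a run of the GAGA word GAGAGA read as TCTCTC.
Akt before the start, chr3R:16099128-16099227, plus strand: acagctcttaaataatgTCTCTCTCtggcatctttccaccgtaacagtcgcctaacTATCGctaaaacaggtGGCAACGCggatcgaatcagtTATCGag

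The transcription factor gene foxo (FBgn0038197, chr3R:14056945-14087978, plus strand) had no thresholded peak at its starts or in its body. The strongest pooled promoter region had a signal of 115.5, rank 6214, with its summit 488 bp upstream of the first start, near the edge of the window. A second one, of signal 87.4 and rank 8140, lay 277 bp upstream. Another, of signal 79.6 and rank 8893, lay 457 bp upstream of the other start. The strongest promoter region of each replicate ranked 10809, 4536 and 7050, so 1 of the 3 was among the 5558 strongest. Within the gene, 6 pooled regions gave 1.93 per 10 kb, against 1.46 over all arms. In replicates 1, 2 and 3 the density was 1.93, 1.61 and 1.29 per 10 kb, against 2.18, 1.25 and 1.04, so it was below the arms in replicate 1 and above them in the others. The highest signal in an intron away from the starts was 79.9, rank 8858, at 27.8 kb.

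A thresholded peak lay upstream of foxo, well outside the limits set for the gene, and it is given here because of its value. It ran from 14053490 to 14053717, in no annotated gene, with its summit 3357 bp upstream of foxo, whose start is the nearest of any annotated gene. Its signal of 389.2, rank 693, was above that of the intronic InR peak. Replicates 1, 2 and 3 held it at ranks 1568, 512 and 682. That distance is ordinary for the genome, since 48.7% of all genes had their nearest thresholded summit farther away. Whether the region acts on foxo was not tested. Its sequence is shown in full for 201 bases around the summit, and capitals mark the TATA word TATAAA read on the other strand, 40 bp before the summit. TATAAA was within 100 bp of 26.0% of all summits.
upstream of foxo, chr3R:14053488-14053688, plus strand: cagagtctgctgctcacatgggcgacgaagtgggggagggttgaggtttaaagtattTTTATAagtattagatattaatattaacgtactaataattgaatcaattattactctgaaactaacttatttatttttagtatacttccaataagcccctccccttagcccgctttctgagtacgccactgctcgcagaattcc

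**Figure D2:**
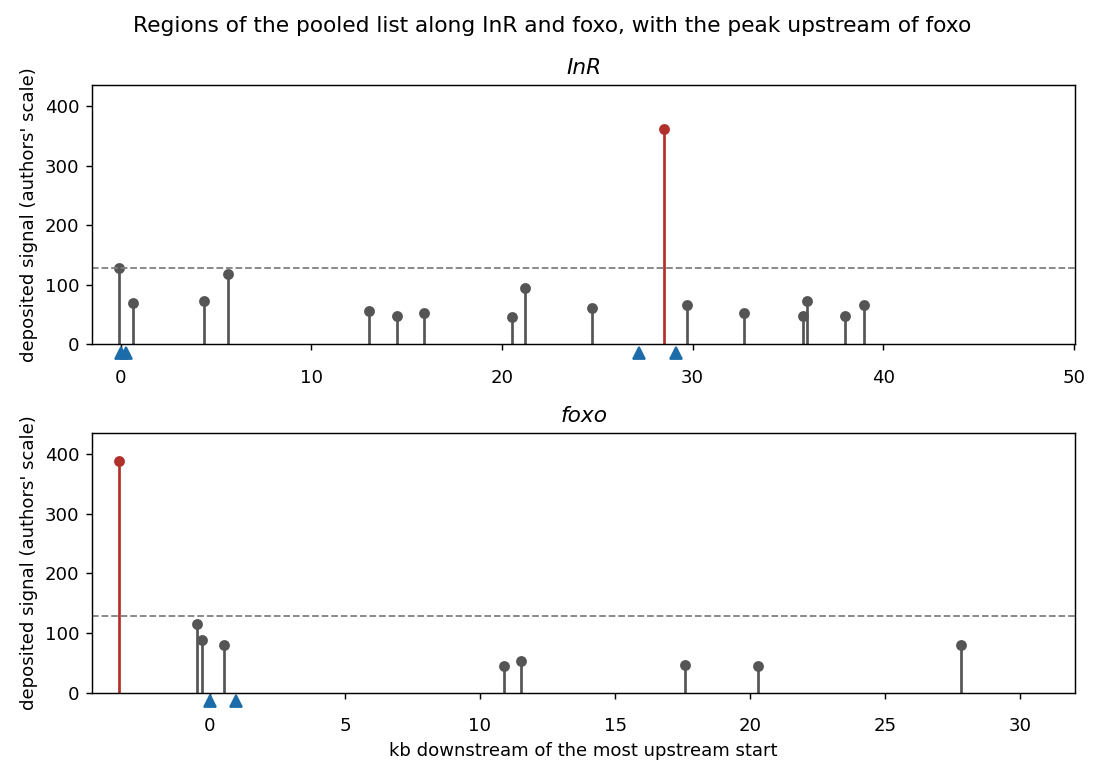
Deposited signal (authors' scale) of each pooled region against its distance from the most upstream start in kb, for InR and foxo, with blue triangles at annotated starts and a dashed line at 128.8, the lowest thresholded signal. Red marks thresholded peaks, namely the intronic InR peak of 361.1 at 28.5 kb and the peak of 389.2 located 3.36 kb upstream of foxo, the only region drawn beyond 500 bp of a start and outside a gene.

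Tor, the nutrient-sensing kinase (FBgn0021796, mTor in the annotation, chr2L:13004480-13013197, plus strand), had the weakest promoter peak of the 6. It ran from 13004533 to 13004667 with a signal of 131.8 and rank 5422, close to the end of the list, and 97.5% of peaks were stronger. The summit lay 96 bp downstream of the start. Replicates 1, 2 and 3 held it at ranks 5321, 2732 and 6619, a mean of 4891 ± 1979 (SD, n = 3), with signals of 56.4, 85.8 and 27.1. In replicate 3 it was therefore outside the 5558 strongest. Vha68-1, a gene for a subunit of the vacuolar proton pump, starts 469 bp from this summit on the other side. A pooled region of signal 127.8, rank 5613, just below the thresholded list, stood 273 bp upstream of Tor and 100 bp from the start of Vha68-1. The strongest region that replicate 3 had near Tor, rank 1593 with a signal of 68.6, was centred on that side, 271 bp upstream of Tor.

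The gene raptor, for the subunit that brings substrates to the TOR kinase (FBgn0029840, chrX:6082634-6090201, minus strand), had a promoter peak from 6089833 to 6090272, with a signal of 189.1 and rank 3530. The summit lay 148 bp downstream of the start. The replicates placed it at ranks 3308, 4106 and 3089, a mean of 3501 ± 535 (SD, n = 3), with signals of 82.5, 65 and 47.4. The annotation puts this summit inside Mipp2 as well, on the same strand, and 175 bp from the start of an antisense RNA, asRNA:CR44959. The raptor promoter is shown because it was the only member promoter with the DRE word TATCGATA, 75 bp before the start. That word, which contains CGATA, was in 9.36% of all promoters and within 100 bp of 7.66% of all thresholded summits. It lay more than 100 bp from the raptor summit, and none of the 7 member summits had it in their window. The promoter also held GGCAACGC, 120 bp before the start and outside the stretch printed.
raptor before the start, chrX:6090202-6090301, minus strand: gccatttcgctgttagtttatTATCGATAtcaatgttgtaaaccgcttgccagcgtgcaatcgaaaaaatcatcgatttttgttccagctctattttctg

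For gig, which encodes the fly counterpart of tuberin in the complex that restrains TOR (FBgn0005198, chr3L:20129181-20139010, plus strand), no region was listed in the thresholded or pooled list, at the start or in the body. Replicate 1 alone had a region, with its summit 25 bp downstream of the start, a signal of 49.9 and rank 6047. Replicates 2 and 3 had none. The nearest thresholded summit was 56.3 kb away, near the start of CG42674, and 6.15% of all genes lay farther than that from their nearest one. The median distance over 13945 genes on arms with peaks was 3090 bp. The gig promoter is shown because it is the member start with no listed pooled region. None of the 10 words searched occurred in the 100 bases printed, although TATAAA and the E-box word CAGCTG occurred 38 and 3 bp after the start.
gig before the start, chr3L:20129081-20129180, plus strand: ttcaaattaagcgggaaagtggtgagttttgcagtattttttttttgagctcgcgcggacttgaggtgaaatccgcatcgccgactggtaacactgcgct

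S6k, the kinase that TOR activates (FBgn0283472, chr3L:5797549-5810931, minus strand), had the strongest promoter peak of the 9 genes. It ran from 5810827 to 5811137 with a signal of 616.6, rank 140, and 2.5% of all peaks were stronger. Replicates 1, 2 and 3 held it at ranks 42, 184 and 433, a mean of 220 ± 198 (SD, n = 3), with signals of 304.7, 219.9 and 113.1. In each of these lists it outranked the promoter regions of the other 8 genes. The summit lay 48 bp upstream of S6k but only 6 bp from the start of kri, a gene on the plus strand that begins at 5810973. The summits of these replicate regions lay 5, 47 and 38 bp upstream of S6k. Replicate 1 listed a second, overlapping region of signal 68.4 and rank 4282, with its summit 205 bp upstream. The starts are divergent and share this 1 peak, so the signal cannot be assigned to either gene. Such sharing was common, since 55.5% of all genes with a promoter peak shared it with the start of another protein-coding gene. The 41 bases between both starts are shown because the summit lies just beyond their end on the kri side. None of the 10 words was found there, or within 100 bp of the summit.
between S6k and kri, chr3L:5810932-5810972, minus strand: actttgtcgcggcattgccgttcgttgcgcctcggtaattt

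Likeness to S6k was measured as the summed absolute difference in log2 rank of the strongest promoter peak over the 3 replicates, among 4595 genes. The nearest was kri at 0.00, being the same peak. MED6, a Mediator subunit gene, and Naa80 followed at 0.53. They in turn share a peak with each other, of signal 643.8 and rank 124, which the replicates held at ranks 49, 169 and 492.

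Thor, the 4E-BP that TOR inactivates and a known target of foxo (FBgn0261560, chr2L:3478434-3479612, plus strand), had a promoter peak from 3478229 to 3478668 with a signal of 189.1 and rank 3531. The summit lay 15 bp downstream of the first start. Replicate 1 held it at rank 2216 with a signal of 103.7, and replicate 2 at rank 5542 with a signal of 50.5, a mean of 3879 ± 2352 (SD, n = 2). Replicate 3 had no region over that summit. Its promoter region, of signal 29.9 and rank 5751, was centred 280 bp upstream. Thor is therefore the member peak with the least replicate backing. The Thor promoter is shown for the TATA word TATAAA, 28 bp before the start, and copies of GAGAGA further upstream, all in capitals. TATAAA was in 5 of the 9 member promoters and 45.9% of all promoters, and GAGAGA was in 2 of the 9, Akt and Thor, and 12.3% of all. The forkhead word GTAAACA lay 83 bp downstream of the summit, but it was in 0 of the 9 member promoters, beside 9.23% of all.
Thor before the start, chr2L:3478334-3478433, plus strand: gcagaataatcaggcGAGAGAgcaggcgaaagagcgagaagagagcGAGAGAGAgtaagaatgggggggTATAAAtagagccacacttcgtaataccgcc

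**Figure D3:**
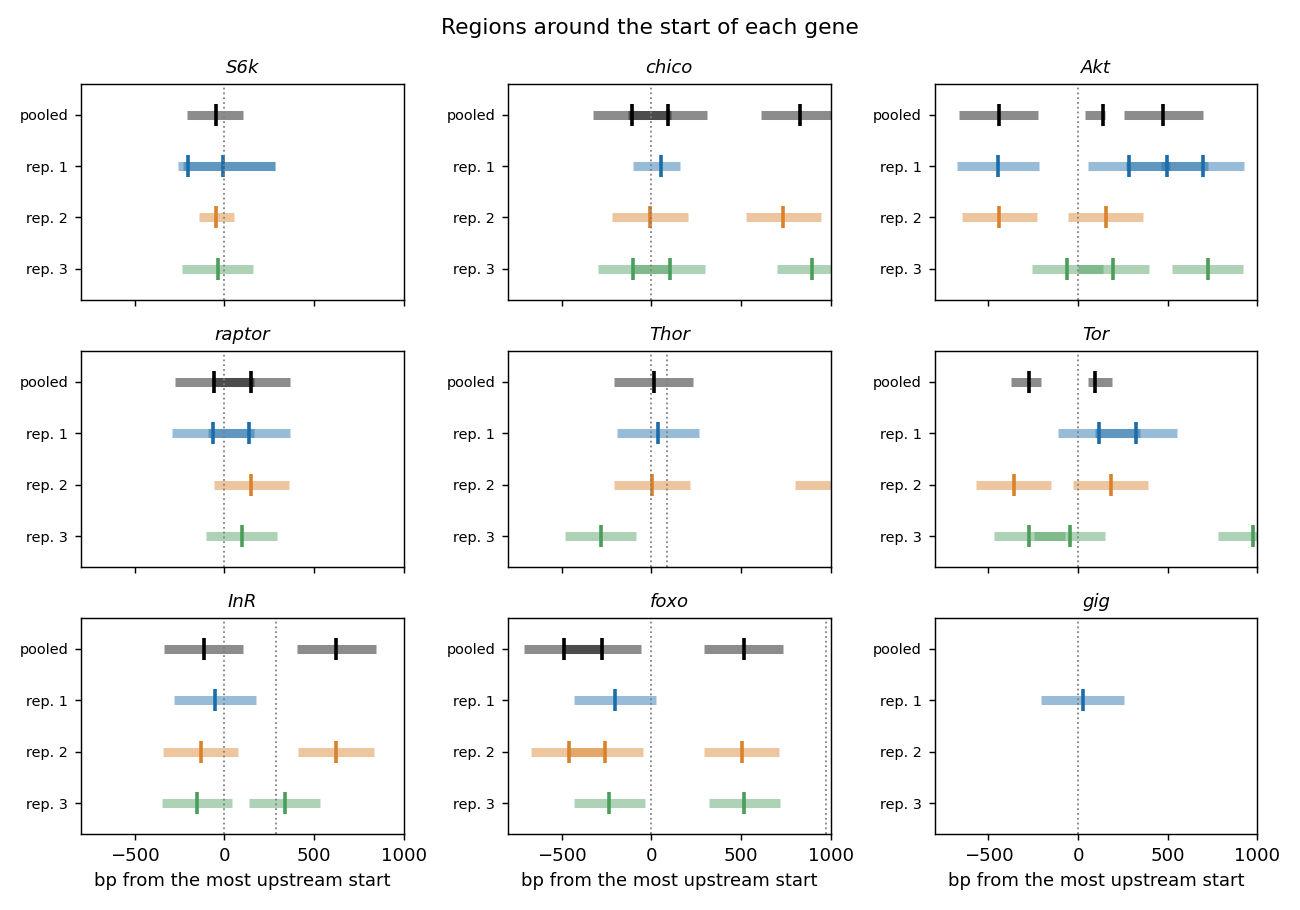
Regions around the most upstream start of each gene (bars) and their summits (ticks), in bp along the direction of transcription, in the pooled list and the 3 replicate lists, with dotted lines at annotated starts. Only regions with a summit within 500 bp of a start or inside the gene are drawn. The strongest summits of the replicates nearly coincide at S6k, where replicate 1 has a second, weaker one 205 bp upstream. Within the span drawn, replicate summits lie on both sides of the most upstream start at each gene but S6k and gig. At Thor the summit of replicate 3 falls 280 bp upstream.

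A set of 10 words of core promoters and known factors was searched on both strands in all windows, and no single word ran through the member peaks. Within 100 bp of the 7 thresholded summits at or in member genes, CGATA was found at 3 (InR, chico and Tor), beside 37.3% of all 5558 summits, and GTAAACA at 2 (chico and Thor), beside 7.72%. TATAAA and GAGAGA were at 1, Thor, beside 26.0% and 7.34%. None had the DRE word TATCGATA (7.66% of all 5558 summits), the core promoter word GGTCACAC (8.83%) or its fellow GGCAACGC (2.93%). Nor did any have the E-box words, CAGCTG (13.6%) or CACGTG (2.99%), or the GATA-factor word AGATAAG (1.93%). S6k, Akt and raptor had none of the words near their summits. In the 9 promoters, CGATA was in 5 against 47.4% of all promoters, and TATAAA was in 5 against 45.9%. GTAAACA was in 0 of the 9 promoters, against 9.23%. A match is a description of letters and not a bound site, and an absent word says only that those letters are not in the window.

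The wider pathway was read from 64 further genes grouped by role. A thresholded promoter peak was found at 43 of them, 67.2%, beside 37.1% of all protein-coding genes. Of the 64, 36 had a peak held by a region of all 3 replicates, beside 33.6% of all protein-coding genes. For the strongest regions of each replicate the count was 28, beside 26.5%. Of the 43, 18 shared the peak with another protein-coding start, beside 55.5% of all genes with a promoter peak. These shares are also the ones to set beside the counts by role below. Signals of the 43 ran from 130.5 to 603.1 with a median of 263.5, beside 253 over all genes with such a peak. The list was put together with earlier results of these data known, and no test was made on it.

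None of the 10 genes for ligands and secreted binders had a thresholded promoter peak. These are Ilp1 to Ilp8, ImpL2 and Sdr, which encode the insulin-like peptides and proteins that bind them. Pooled regions were listed at 2 of them, Ilp7 with a signal of 74.0 and ImpL2 with 78.0, and the other 8 had no region in the pooled list. In the receptor-proximal and PI3K arm the count was 7 of 10.

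There all 7 peaks were held by the strongest regions of all 3 replicates, beside 3707 of the 5179 genes with a promoter peak. Their median signal was 276.7. Pi3K21B, the regulatory subunit of PI3K, was highest with a signal of 579.7 and replicate ranks of 124, 125 and 414. Lnk, an adaptor at the receptor, had 381.6, and step, a cytohesin-type exchange factor, had 297.1. The genes without a thresholded peak were Pdk1, the kinase that phosphorylates Akt, trbl, a pseudokinase that binds Akt, and PRAS40, an inhibitor of the TOR complex. Their pooled signals were 57.5, 88.4 and 63.6.

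Of the 6 genes of the TSC, Rheb and TOR complexes, 5 had a peak, with a median signal of 304.1, and 4 of these shared it with another start. Sin1, a subunit of the second TOR complex, had 413.1 and its summit was also 251 bp from the start of CG17385. Rheb, the GTPase that activates TOR, had 381.1 and CG2931 starts 278 bp away. Tsc1, which binds the gig protein, had 304.1, ranked 794, 2154 and 3740 in the replicates, and GatB starts 54 bp away. The 2 subunits of the tuberous sclerosis complex therefore differed in these lists, with a shared promoter peak at Tsc1 and no pooled region at gig. Lst8, a shared subunit of both TOR complexes, had only a pooled region of 47.1.

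Among the 24 genes of amino acid and energy sensing, 20 had a peak, 15 were held by all 3 replicates and 12 shared the peak with another start. Lkb1, the kinase that activates AMPK, was highest of all 64 with 603.1 and replicate ranks of 93, 237 and 262, and CG9588 starts 17 bp from its summit. Sesn, a sestrin gene, had 548.3 and shares its peak with CG46429. Lamtor3, a subunit of the Ragulator that anchors TOR at the lysosome, had 503.5 and shares its peak with fws.

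Of 14 genes for outputs of TOR and foxo, 11 had a peak and 1 of them shared it. REPTOR, a transcription factor restrained by TOR, had 438.1. The cap-binding factor eIF4E1, which Thor represses, had 391.2, and sima, the fly hypoxia-inducible factor, had 368.4. RpS6, the ribosomal protein that S6k phosphorylates, had no thresholded peak and a pooled signal of 84.1. Mitf, a lysosomal gene regulator, had 91.6 and Myc, the growth regulator, had 43.7, likewise below the threshold.

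**Figure D4:**
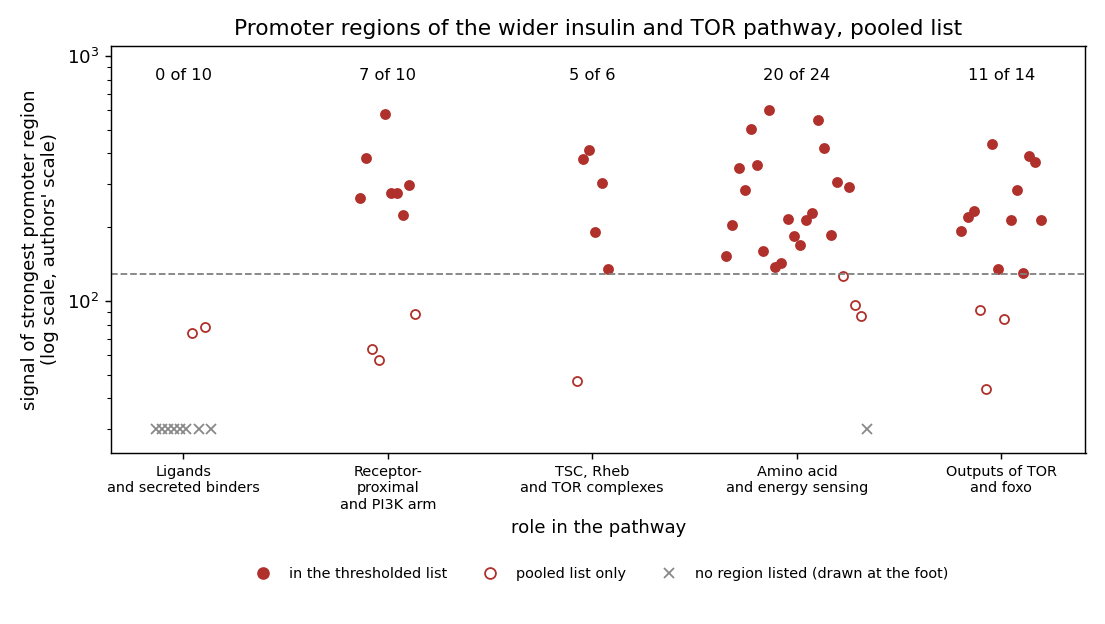
Deposited signal (log scale, authors' scale) of the strongest pooled promoter region of each of 64 wider pathway genes by role, filled where the region is in the thresholded list, open where it is below it, and a cross at the foot where no region is listed. The dashed line is the lowest thresholded signal, 128.8, and counts give the genes above it. No ligand gene reaches the line, and 7 of 10, 5 of 6, 20 of 24 and 11 of 14 genes of the other roles do.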

How the data were processed

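The 3 samples are the replicates of 1 group, named by the labels as separate biological replicates. The signal of each region was made and deposited by the authors, on a scale that is not stated. Per the listing text deposited with the labels, replicate and pooled lists hold peaks and background regions made from the alignments and a control alignment. They served a filter on the irreproducible discovery rate (IDR), from which the thresholded list was derived. Neither the IDR threshold nor the programs used for alignment and peak calling could be read from the labels or headers: not given in the sources used here. Reads per library were not stated either, so depth is unknown and no interval was made. The 5558 thresholded regions are the strongest entries of the pooled list.

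Lists of the dm6 build were joined by summit to transcription starts and gene spans of Ensembl release 115 (13968 protein-coding genes, 19275 starts), with a promoter window of 500 bp. Starts are those of any annotated transcript, and coordinates count from 1. The other lists, in build dm3, were not used here, since no annotation of that build was at hand. A replicate held a peak where the summit lay inside 1 of its regions, and the strongest such region gave the rank. Words were searched within 100 bp of summits and from 250 bp before to 50 bp after starts. Sequence came from the RefSeq assembly of Release 6, and stretches with no untranslated-region bases were printed. Python 3.11.15, pandas 2.3.3 and numpy 2.4.6 were used, and the joins and word search were tested on simulated data.

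The members, the 64 wider genes, the words and the rule for named genes were chosen with earlier results of these data known. Named from the wider list are the 3 strongest genes of each role and those without a peak where they are 3 or fewer. Ligand genes, and the nearest peaks outside each gene's limits, were named after their values were seen. Tor was matched to mTor, not to torso, by gene identifier. No test was run, because the 1 group has no contrast. Alternatives were windows of 250 and 1000 bp, 1 start per gene, the stronger 2779 peaks, any overlap of the region with the window, all pooled regions, a summit distance of 200 bp between lists, and leaving out each replicate.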

Additional observations from a re-analysis of the deposited data

How the results depend on the processing

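The count of 6 members with a promoter peak was 6 with a 250 bp window, 1 start per gene or any base of the region in the window, and 7 at 1000 bp, where InR was added through its intronic peak. With the stronger 2779 peaks it was 2, chico and S6k, beside 23.5% of all genes, and the wider count of 43 was 26. With the 2779 strongest regions of each replicate in place of 5558, S6k was the 1 member in the strongest regions of all 3, beside 13.9% of all genes. The count of gene-body members, 1, was 0 at 1000 bp, beside 3.72% of genes, and 4 with all pooled regions (InR, chico, foxo and S6k), against 21.8% of genes. The signal at Akt was 244.7 at 1000 bp, where the peak near Mhcl counts for it. With InR also added at that window, the members' median signal was 244.7 in place of 195.1. Leaving out a replicate gave 5 to 6 members held by all replicates and 4 to 6 among the strongest, the higher values without replicate 3. The median of the members' mean replicate ranks was 2747 to 3418, lowest without replicate 2. The members' count no longer stood above the share of all genes with the stronger peaks or with fewer replicate regions. For gene bodies the same held with the 1000 bp window. The counts there, 2, 1 and 0, were near the shares of all genes, and so few members cannot show a fall below them. No paired analysis was possible because there is 1 group. A thresholded list from fewer replicates could not be made, so its signals and ranks keep all 3 libraries. Depth is unknown, so a gene below the threshold may still be bound.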

Other observations

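The nearest thresholded peak beyond each gene's own limits mostly stood at another gene's start, and these were looked up after the data were seen. Upstream of chico it was 3467 bp away with a signal of 306.1, at the starts of bsk, the Jun kinase gene, and CG31717. Upstream of raptor it was 1092 bp away with a signal of 186.7, at the starts of Nep1 and Mipp2. Upstream of S6k it was 2174 bp away with a signal of 149.9, at mad2, and upstream of Tor 3783 bp away with 180.5, at Yip1d1. Upstream of Thor it was 2336 bp away with a signal of 141.5, at 245 bp from the start of lncRNA:CR43928. Beyond InR the nearest was 7402 bp upstream, inside E2f1, with a signal of 130 and no region of replicate 3 over it.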
